A study of Rattus norvegicus with 8 samples.

Results

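Molecular chaperones and genes of the unfolded protein response were followed in the kidneys of rats kept on a low or a replete intake of silicon (Si). The group held 40 genes listed by symbol. They were chosen with earlier results of these data known, so that counts over them are descriptions. Of these, 36 had a probe set that the platform annotation gives to that gene alone, out of 14217 genes that could be named in this way. Each gene was read from its brightest such probe set. Hspa1b, Hspa8, Hsp90aa1 and Ern1 had no probe set of their own and were not analysed here. By compartment, 13 of 16 listed chaperones and regulators of the cytosol and nucleus were measured. All 3 mitochondrial chaperones and all 13 chaperones and folding enzymes of the endoplasmic reticulum were measured, and 7 of 8 sensors, transcription factors and targets of the unfolded protein response. Hspa1a and Hspa1b are near-identical copies, so the value given for Hspa1a may include Hspa1b.

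The kidneys came from female Sprague-Dawley rats that were 29 weeks old and had spent 26 weeks on the diets. Si deplete rats, which the labels call Si deprived, took in 0.17 mg Si daily per kg of body weight, and Si replete rats 4.1 mg. Both groups ate the same low-Si feed, and in the Si replete group orthosilicic acid was added to the drinking water. Neither group was given any agent that unfolds proteins. Each array held RNA from 1 rat's left kidney, ground whole, with 4 arrays per diet, and rats of each diet were killed in turn on the same days, although the arrays are not tied to days or cages. Levels are on the log2 scale, so that a difference of 1 is a doubling, and differences are given as Si deplete minus Si replete. In ground kidney, fewer cells of a type and less RNA per cell cannot be told apart.

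Chaperones bind unfolded or newly made proteins and help them to fold. In the cytosol, the heat shock factor Hsf1 raises the chaperone genes when unfolded proteins accumulate, through heat shock elements in their promoters. In the endoplasmic reticulum, the sensors Eif2ak3 (PERK), Atf6 and Ern1 (IRE1) detect unfolded secretory and membrane proteins. They raise reticulum chaperones through Atf6 and spliced Xbp1, which act at endoplasmic reticulum stress elements, and amino acid and stress genes through Atf4. The tubules of the kidney make large amounts of membrane protein, and both responses are known from injured tubules.

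Promoters are shown for members in which the letters of these elements were found, to show which members hold which element. RefSeq promoters of the GRCr8 build, from 250 bases before to 50 bases after the start, were found for 30 of the 40 members. Positions count the start as 1 and the base before it as -1, and both strands were searched. The heat shock motif was taken as GAA, TTC and GAA, or TTC, GAA and TTC, with 2 bases between neighbours. It was found in the promoters of 3 of 11 cytosolic and nuclear members (Hsph1, Dnaja1 and Hspa8), 2 of 3 mitochondrial members, 0 of 10 members of the reticulum and 0 of 6 of the unfolded protein response group. Over all 27457 genes with a promoter in the RefSeq table, 218 (0.794%) held it. In the lines that follow, capitals mark the motif. The Hsph1 window lies at chr12:10427268-10427367, plus strand, from -100 to -1. The Hspe1 window lies at chr9:64084227-64084326, plus strand, also from -100 to -1, and its capitals hold a pair of overlapping matches.
Hsph1: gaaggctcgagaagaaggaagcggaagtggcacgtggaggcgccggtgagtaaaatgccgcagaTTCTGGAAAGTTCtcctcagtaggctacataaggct
Hspe1: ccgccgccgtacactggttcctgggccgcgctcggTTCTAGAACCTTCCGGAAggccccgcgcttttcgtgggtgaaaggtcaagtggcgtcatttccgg
Hspd1 and Hspe1, which encode the mitochondrial chaperonin and its lid, are transcribed away from each other from starts 289 bases apart. Their promoter windows share 211 bases, and the motif of Hspd1 is the same stretch of DNA as that of Hspe1, at chr9:64084262-64084279.

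The endoplasmic reticulum stress motif was taken as CCAAT and CCACG with 9 bases between them. Its short second form was taken as ATTGG and CCACG with 1 base between them. The first was found in 5 of 10 members of the reticulum (Hspa5, Hsp90b1, Calr, Canx and Dnajc3) and in Xbp1, and in 21 (0.0765%) of the 27457 genes. The second was found in Herpud1 and Hyou1 and in 17 (0.0619%) of all genes. Neither was found in a cytosolic or mitochondrial member. An amino acid response motif, TGATG and AAT with 1 base between them, was in 312 (1.14%) of all genes and in 0 of the 30 members. A match, or its absence, describes these exact letters in these windows only. Forms of the elements with other letters, such as another last base after TGATG and AA, were not searched. A count of 0 thus does not show that the members lack the element. The windows shown are Hspa5 at chr3:38452916-38453015, plus strand, Hsp90b1 at chr7:23012339-23012478, minus strand, Dnajc3 at chr15:102432517-102432566, plus strand, Xbp1 at chr14:84604523-84604622, plus strand and Herpud1 at chr19:10614808-10614857, minus strand. Hsp90b1 holds the motif once on each strand.
Hspa5: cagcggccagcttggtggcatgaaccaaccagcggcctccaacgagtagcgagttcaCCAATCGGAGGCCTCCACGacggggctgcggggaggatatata
Hsp90b1: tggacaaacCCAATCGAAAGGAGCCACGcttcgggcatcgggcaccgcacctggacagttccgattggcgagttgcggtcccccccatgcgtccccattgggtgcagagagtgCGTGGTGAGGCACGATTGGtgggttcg
Dnajc3: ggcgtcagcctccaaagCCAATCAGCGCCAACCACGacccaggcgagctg
Xbp1: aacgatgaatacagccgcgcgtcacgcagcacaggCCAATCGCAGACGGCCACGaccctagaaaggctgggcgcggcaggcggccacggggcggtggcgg
Herpud1: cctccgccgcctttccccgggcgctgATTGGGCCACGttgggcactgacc

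No chaperone or gene of the unfolded protein response passed the test between the diets, in either direction. At an adjusted p under 0.1 from limma, which compares each gene with an estimate of its spread moderated across genes, 0 of 36 passed, beside 29 of all 14217 genes, or 0.204%. The lowest adjusted p of a member was 0.271. At an unadjusted p under 0.05, 1 member (2.78%) was counted, Dnajb4, beside 18.5% of all genes and 22.5% of genes with a mean level of 4 or more. Dnajb4 was also the single member, again 2.78%, whose Si deplete arrays did not overlap with its Si replete arrays, which held for 11.9% of all genes. The members' log2 differences lay between -0.32 and 0.59, with 19 above and 17 below 0. Their median was 0.0080, beside 0.00013 for all genes, and their median size without sign was 0.0999, beside 0.132. The levels of the members lay between 4.15 and 13.24, with a median of 10.24, and so mostly well above the low end of the scale.

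The intervals limit how large a change could have gone unseen. For 27 of 36 members the 95% interval of the difference lay within 0.5 on the log2 scale on either side of 0, a 1.41-fold change, and for 32 it lay within a 2-fold change. The 4 members with wider intervals were Hspb1, Sdf2l1, Trib3 and Asns. These intervals are for single genes and were not widened for the number of genes. The 4 arrays per group limit the precision.

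**Figure D1:**
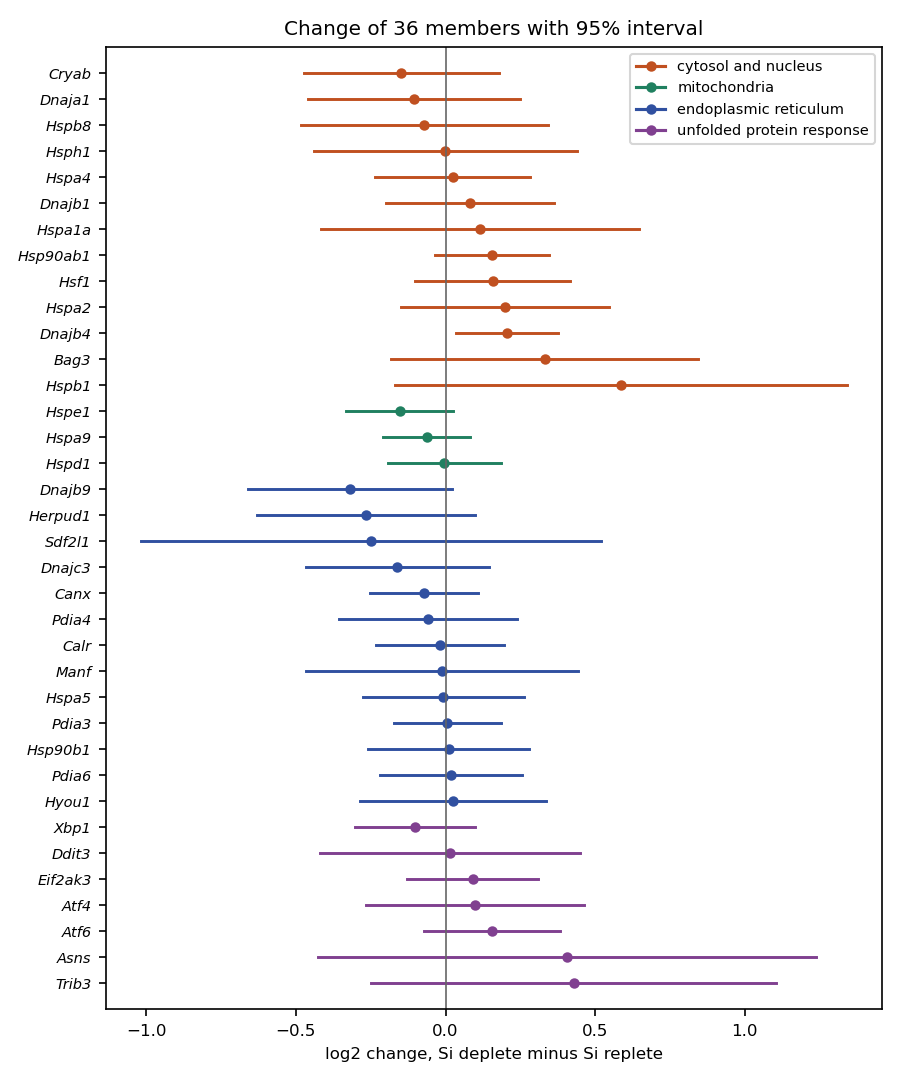
Log2 difference (Si deplete minus Si replete) of the 36 measured members, ordered within 4 compartments; points are limma estimates from 4 arrays per diet and bars are 95% intervals. The interval of Dnajb4, 0.034 to 0.38, is the single one that leaves out 0.

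**Figure D2:**
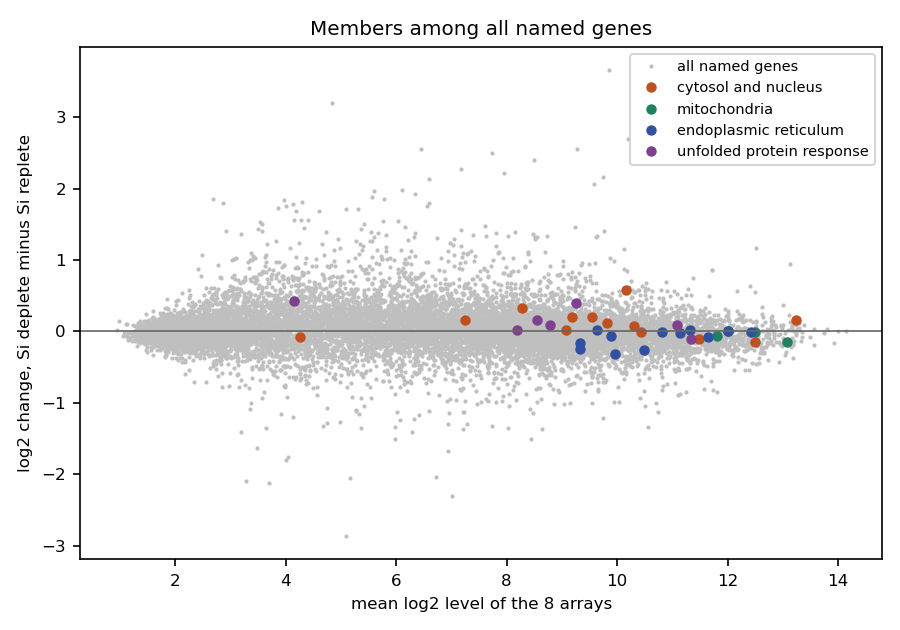
Log2 difference against the mean log2 level over 8 arrays; grey points are the 14217 named genes and coloured points the 36 members. The members lie between -0.32 and 0.59, within the cloud of all genes, and most of them at the bright end.

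Among the heat shock proteins of the cytosol, the inducible HSP70 Hspa1a, the exchange factors Hspa4 and Hsph1 and the J-domain partners Dnaja1, Dnajb1 and Dnajb4 had differences of -0.10 to 0.20. Hspa1a, the inducible HSP70, had levels of 10.27, 10.14, 9.55 and 9.57 in the Si deplete replicates (1 to 4 in turn, here and later) and 9.60, 10.33, 9.77 and 9.36 in Si replete replicates 1 to 4. Its highest array was thus Si replete and the groups overlapped. The log2 difference was 0.12 with a standard error (SE) of 0.24, and an adjusted p of 0.854 from limma, with a 95% interval of -0.42 to 0.65. Hsph1 (HSP110), which releases the nucleotide from HSP70 and whose heat shock motif is shown above, had levels of 10.08, 10.87, 10.27 and 10.49 in Si deplete and 10.51, 10.81, 10.30 and 10.10 in Si replete kidneys. Each diet held high and low arrays of Hsph1, and the means were 10.43 ± 0.34 and 10.43 ± 0.30 (SD, n = 4 each). The difference of Hspa4, another HSP70 exchange factor, was 0.024 (SE 0.11). Dnajb1 and Dnaja1, the J-domain partners that bring substrates to HSP70, differed by 0.081 (SE 0.12) and -0.10 (SE 0.16).

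Dnajb4, a J-domain partner of HSP70 known from heart and muscle, gave the smallest p of all members. Its levels were 9.52, 9.65, 9.70 and 9.69 in Si deplete and 9.35, 9.50, 9.43 and 9.46 in Si replete replicates 1 to 4. All 4 Si deplete arrays lay above all 4 Si replete arrays, with 9.52 just above 9.50. The means were 9.64 ± 0.08 and 9.44 ± 0.07 (SD, n = 4 each). The log2 difference of 0.20 (SE 0.076) is a fold of 1.15, and it did not pass (limma, adjusted p = 0.271). An exact 2-sided permutation test over 70 arrangements of the arrays gave p = 0.0286, the smallest that 4 against 4 arrays allow. Once each array's median was subtracted, the difference of Dnajb4 was 0.15 and its unadjusted p was no longer under 0.05. The diets then overlapped for Dnajb4.

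Hspb1 (HSP27), a small heat shock protein that holds unfolding proteins and stabilizes actin, showed the largest difference in either direction. Its levels were 11.14, 10.67, 9.61 and 10.42 in Si deplete and 10.20, 10.39, 9.50 and 9.40 in Si replete replicates 1 to 4. The diets overlapped, since Si deplete replicate 3 lay below Si replete replicates 1 and 2. The log2 difference was 0.59 (SE 0.33), a fold of 1.50 with a 95% interval of 0.89 to 2.53 (limma, adjusted p = 0.439). Without Si deplete replicate 1 it was 0.36, and without Si deplete replicate 3 it was 0.87 (adjusted p = 0.198). With a block for the replicate number its SE was 0.18 (limma, adjusted p = 0.240). The differences of both other small heat shock proteins were below 0. Cryab (alphaB-crystallin) differed by -0.15 (SE 0.14) and Hspb8 by -0.072 (SE 0.18), the latter at a mean level of 4.25 near the low end of the scale.

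Bag3, which couples HSP70 and small heat shock proteins to autophagy, had levels of 8.49, 8.89, 8.22 and 8.18 in Si deplete and 7.84, 7.80, 8.09 and 8.72 in Si replete kidneys. Si replete replicate 4 was the second highest of the 8, so that the groups overlapped and the difference of 0.33 (SE 0.23) did not pass (limma, adjusted p = 0.521). Hsf1, the factor that drives the heat shock response, had levels of 7.38, 7.52, 7.13 and 7.25 against 7.36, 7.23, 7.04 and 7.01. Its difference was 0.16 (SE 0.11, adjusted p = 0.546 from limma). The groups overlapped for Hsf1 as well.

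Hsp90ab1, the constant HSP90 of the cytosol, had levels of 13.33, 13.44, 13.17 and 13.33 in Si deplete and 13.15, 13.27, 13.13 and 13.10 in Si replete kidneys. Only Si deplete replicate 3 lay within the Si replete range, and the difference was 0.15 (SE 0.084, adjusted p = 0.419 from limma). Hspa2, an HSP70 best known from testis, had a level of 9.77 in Si deplete replicate 1 and of 9.11 to 9.13 in Si deplete replicates 2 to 4, beside 9.24, 8.97, 9.11 and 9.01 in Si replete kidneys. Its difference of 0.20 (SE 0.15) went to 0.037 without Si deplete replicate 1. A second, dimmer probe set of Hspa2 differed by 0.43 (SE 0.22, adjusted p = 0.398 from limma). Over the 13 measured cytosolic and nuclear members, 9 differences were above 0 and 4 below, with a median of 0.12.

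**Figure D3:**
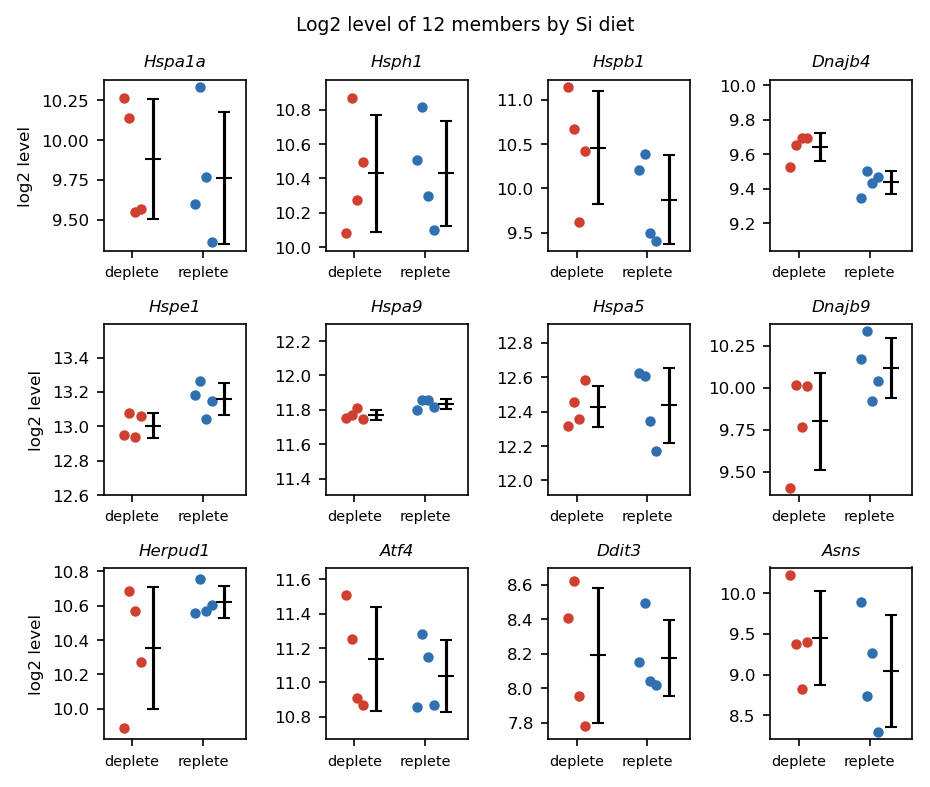
Log2 levels of 12 members by diet, with 1 point for each kidney's array in replicate order, and the black mark and bar beside them are the mean and SD of 4, with a separate scale in each panel. The diets overlap in every panel but that of Dnajb4, whose lowest Si deplete array is at 9.52 and highest Si replete array at 9.50.

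The 3 mitochondrial chaperones had small differences and the smallest spread of the 4 compartments, with a median SD within diets of 0.083 beside 0.20 to 0.26 for the other compartments. Hspa9 (mortalin), the HSP70 that pulls proteins into the mitochondrion, had levels of 11.75, 11.77, 11.81 and 11.75 in Si deplete and 11.80, 11.86, 11.86 and 11.82 in Si replete replicates 1 to 4. Its SD of 0.028 and 0.030 (n = 4 each) was the smallest of any member, and Si deplete replicate 3 lay just inside the Si replete range. The log2 difference was -0.063 (SE 0.065, adjusted p = 0.681 from limma), and the 95% interval of -0.21 to 0.083 leaves room for a fold of 0.865 to 1.06. This SE uses the spread moderated across genes, which is larger than the spread of Hspa9 itself. An exact 2-sided permutation test for Hspa9 gave p = 0.0571. Once each array's median was subtracted, its diets no longer overlapped. Hspd1, which forms the folding chamber HSP60, had levels of 12.33, 12.53, 12.59 and 12.52 against 12.57, 12.55, 12.44 and 12.44. The Si deplete group held both the lowest and the highest array of Hspd1, and the difference was -0.0046 (SE 0.083, adjusted p = 0.986 from limma).

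Hspe1 (HSP10), the lid of the Hspd1 chamber, had levels of 12.95, 13.08, 12.94 and 13.06 in Si deplete and 13.18, 13.26, 13.04 and 13.15 in Si replete kidneys. Si replete replicate 3 alone lay within the Si deplete range. The difference was -0.15 (SE 0.079, adjusted p = 0.396 from limma), with a 95% interval of -0.33 to 0.025. Hspd1 and Hspe1 thus had differences of different size although they share promoter sequence, and the difference between them was not tested. All 3 mitochondrial members were below 0, with a median of -0.063.

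In the endoplasmic reticulum, the differences of the main chaperones were under 0.1 on the log2 scale. Hspa5 (BiP), the HSP70 of the reticulum that also holds the stress sensors inactive, had levels of 12.32, 12.46, 12.36 and 12.58 in Si deplete and 12.63, 12.61, 12.34 and 12.17 in Si replete replicates 1 to 4. The Si replete group held the 2 highest arrays and the lowest one. The difference was -0.0081 (SE 0.12, adjusted p = 0.983 from limma), with a 95% interval of 0.825 to 1.20 as a fold. Hsp90b1 (GRP94), the HSP90 of the reticulum, had levels of 12.08, 12.11, 11.71 and 12.17 against 12.10, 12.14, 11.92 and 11.87, and a difference of 0.010 (SE 0.12, adjusted p = 0.979 from limma). Here Si deplete held both extremes. Calr and Canx, the lectins that hold glycoproteins while they fold, differed by -0.019 (SE 0.095) and -0.072 (SE 0.079).

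The disulfide isomerases Pdia3, Pdia4 and Pdia6, which form and reshuffle disulfide bonds, differed by 0.0058 (SE 0.079), -0.059 (SE 0.13) and 0.019 (SE 0.11). Hyou1, the exchange factor of BiP, differed by 0.025 (SE 0.14), and Manf, a BiP cofactor that is secreted under stress, by -0.012 (SE 0.20). These 5 genes were thus all within 0.06 of 0. The members of the reticulum with larger differences were the J-domain partners of BiP and 2 small stress targets. The difference of Sdf2l1, which forms a complex with J-domain partners of BiP, was -0.25 with an SE of 0.34, since its levels ran from 8.36 in Si deplete replicate 3 to 9.97 in Si replete replicate 2.

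Dnajb9 (ERdj4), a J-domain partner of BiP and target of spliced Xbp1, had levels of 9.40, 10.02, 9.77 and 10.01 in Si deplete and 10.17, 10.34, 9.92 and 10.04 in Si replete kidneys. Si deplete replicates 2 and 4 lay above the lowest Si replete array, and the means were 9.80 ± 0.29 and 10.12 ± 0.18 (SD, n = 4 each). The difference of -0.32 (SE 0.15) was the lowest of all members and did not pass (limma, adjusted p = 0.362). It was -0.19 without Si deplete replicate 1. Herpud1, which takes part in the disposal of unfolded proteins from the reticulum, had levels of 9.89, 10.69, 10.57 and 10.27 against 10.55, 10.75, 10.57 and 10.60. Its difference of -0.27 (SE 0.16, adjusted p = 0.469 from limma) went to -0.11 without Si deplete replicate 1, its lowest array. Dnajc3 (P58IPK), a J-domain partner of BiP that also inhibits PERK, had levels of 9.45, 9.16, 9.05 and 9.32 against 9.66, 9.56, 9.25 and 9.16, with a difference of -0.16 (SE 0.14, adjusted p = 0.607 from limma). The groups overlapped for both genes. Of the 13 members of the reticulum, 4 differences were above 0 and 9 below, with a median of -0.019 that went to 0.024 after quantile normalization.

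Of the sensors of the unfolded protein response, Eif2ak3 (PERK), which slows translation, differed by 0.091 (SE 0.097). Atf6, which is cut free to enter the nucleus under stress, had levels of 8.84, 8.49, 8.62 and 8.53 in Si deplete and 8.52, 8.29, 8.50 and 8.56 in Si replete kidneys. Its difference was 0.16 (SE 0.10, adjusted p = 0.498 from limma) and the groups overlapped. Xbp1, the target that IRE1 splices, had levels of 11.12, 11.42, 11.36 and 11.28 against 11.43, 11.49, 11.38 and 11.29, and a difference of -0.10 (SE 0.089, adjusted p = 0.625 from limma). These values are RNA levels. They do not measure the splicing of Xbp1, the cutting of Atf6 or the activity of PERK.

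Along the branch downstream of PERK, the factor Atf4 had levels of 11.51, 11.25, 10.91 and 10.87 in Si deplete and 10.86, 11.28, 11.15 and 10.87 in Si replete kidneys. Its difference was 0.098 (SE 0.16, adjusted p = 0.814 from limma), with overlapping groups. Atf4 is controlled largely at translation, which was not measured. Ddit3 (CHOP), the factor of stress-induced cell death, had levels of 8.41, 8.63, 7.96 and 7.78 against 8.15, 8.49, 8.04 and 8.02. The Si deplete arrays of Ddit3 enclosed the Si replete ones, and the difference was 0.016 (SE 0.19, adjusted p = 0.979 from limma).

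The Atf4 targets Asns, which makes asparagine, and Trib3, a pseudokinase that restrains Atf4 signalling, varied widely between kidneys. Asns had levels of 10.22, 9.37, 8.82 and 9.40 in Si deplete and 9.89, 8.74, 9.26 and 8.30 in Si replete kidneys, a range of 1.92. The diets overlapped over most of that range, and the difference was 0.41 (SE 0.37, adjusted p = 0.641 from limma). It ranged from 0.15 without Si deplete replicate 1 to 0.69 without Si replete replicate 1. Trib3, with levels of 5.19, 4.51, 3.96 and 3.78 against 4.30, 3.94, 4.02 and 3.46, lay near the low end of the scale. Its difference was 0.43 (SE 0.30, adjusted p = 0.529 from limma), and it ranged from 0.15 without Si deplete replicate 1 to 0.62 without Si deplete replicate 4. With a block for the replicate number the SE of Trib3 was 0.16 (limma, adjusted p = 0.302). For both genes Si deplete replicate 1 was the highest array and Si replete replicate 4 the lowest. Over the 7 members of this group, 6 differences were above 0 and 1 below, with a median of 0.098.

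The compartments were set side by side as the mean of their members in each array, relative to the mean over 8 arrays. The cytosolic and nuclear members were at 0.17, 0.17, -0.11 and 0.011 in Si deplete replicates 1 to 4 and at -0.055, 0.10, -0.11 and -0.17 in Si replete replicates 1 to 4. The mitochondrial members were at -0.12, -0.00093, -0.013 and -0.016 against 0.058, 0.096, -0.014 and 0.0072. The members of the reticulum were at -0.12, 0.098, -0.21 and 0.061 against 0.18, 0.23, -0.11 and -0.13. In each of these compartments the diets overlapped. The reticulum mean minus the cytosolic mean was -0.28, -0.072, -0.099 and 0.050 in Si deplete and 0.23, 0.13, -0.000010 and 0.045 in Si replete kidneys. Si deplete replicate 4 lay above Si replete replicates 3 and 4, so that the compartments could not be set apart by diet without overlap. The mitochondrial mean minus the cytosolic mean was -0.28, -0.17, 0.099 and -0.027 against 0.11, -0.0042, 0.094 and 0.18, which also overlapped. No test was made on these means.

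The members of the reticulum were high or low together in single kidneys of both diets. In Si replete replicates 1 and 2 all 13 of 13 lay above their own mean over the 8 arrays, and in Si deplete replicates 2 and 4 it was 10 of 13 each. In Si replete replicates 3 and 4 it was 2 of 13 each, in Si deplete replicate 3 it was 3 and in Si deplete replicate 1 it was 5. In all, 10 of 13 were highest in Si replete replicate 1 or 2, and 9 of 13 were lowest in Si deplete replicate 3 or Si replete replicate 4. The spread of these genes therefore ran within each diet, between Si replete replicates 1 and 2 and Si replete replicates 3 and 4. No promoter was found for Pdia3, Pdia6 and Manf, and members with and without a stress motif were not compared.

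A further set of members was highest in replicate 2 of both diets. For 7 members, Si deplete replicate 2 and Si replete replicate 2 were the 2 highest of the 8 arrays. These were the cytosolic Hsph1, Dnajb1 and Dnaja1, the reticulum genes Calr, Herpud1 and Manf, and Ddit3. Of these 7, Hsph1 and Dnaja1 hold the heat shock motif, in Dnaja1 after the start, at 10 to 22. Calr and Herpud1 hold a reticulum stress motif, and Dnajb1 and Ddit3 hold none of the motifs searched. No promoter was found for Manf. A shared number does not mark a shared cage or day in the labels. Over all probe sets, the deviations of the replicate 2 arrays from their group means correlated at 0.090. The members of the unfolded protein response group followed yet other kidneys. Their means were 0.39, 0.18, -0.12 and -0.14 in Si deplete replicates 1 to 4. In Si replete replicates 1 to 4 these means were 0.068, -0.055, -0.0053 and -0.32, so that the diets overlapped. The patterns of single kidneys in this and the preceding paragraph were found in the values and were not tested. Their shares over all genes were not counted, so they cannot be read as particular to these members.

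**Figure D4:**
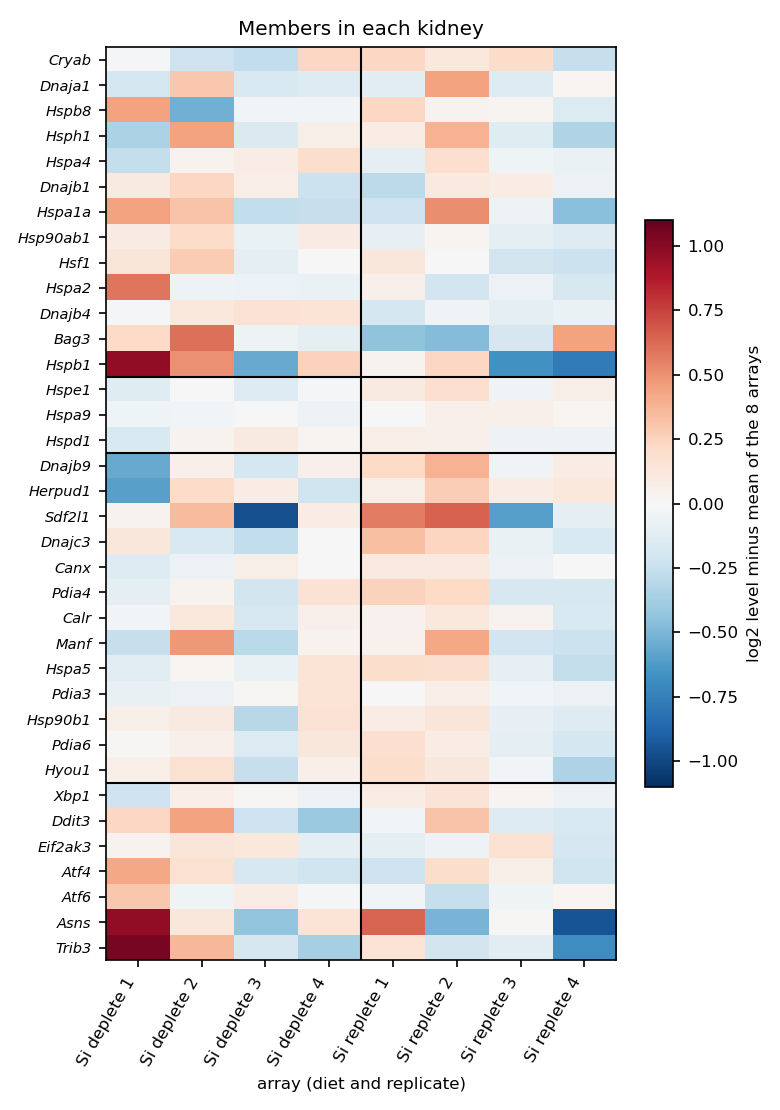
Log2 level of each of the 36 members in each of the 8 arrays minus the gene's own mean over the arrays (red above, blue below), with horizontal lines between the 4 compartments and a vertical line between diets. The reticulum block is red in Si replete 1 and 2, where 13 of 13 members lie above their mean, and mostly blue in Si replete 3 and 4, where 2 of 13 do.

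Samples differed in other ways that run beside these values. Si deplete replicate 1 stood apart on the first principal component, at 64.0 beside -25.9 to 19.2 for the other 7 arrays. All 9 measured markers of tubule injury had differences above 0, and 0 of them passed (limma, adjusted p of 0.120 to 0.594). The mean of the list was highest in Si deplete replicate 1. It lay at 0.081 to 1.64 in Si deplete and at -1.17 to -0.20 in Si replete arrays. In the same order, the 13 immediate early genes lay at -0.023 to 0.98 and -0.50 to -0.32, and 1 of them passed, higher in Si deplete. The 12 markers of the proximal tubule lay at -0.46 to 0.15 and -0.014 to 0.22, lowest in Si deplete replicate 1. Their mean levels were 11.6 to 12.2 in all 8 arrays, and those of the 6 skeletal muscle markers 2.00 to 2.21. The 5 glomerular markers lay at -0.79 to 0.13 and -0.036 to 0.52, lowest in Si deplete replicate 3 and highest in Si replete replicate 2, and the 3 red blood cell markers at -0.72 to 0.32 and 0.094 to 0.70. The red blood cell marker Slc4a1 is also in the collecting duct list. The 9 myeloid markers lay at -0.18 to 0.39 and -0.61 to 0.15, and the 9 fibroblast and mural markers at -0.24 to 0.81 and -0.45 to 0.053. The 7 lymphocyte markers, at low levels, lay at -0.27 to 0.47 and -0.45 to -0.17, the 7 collecting duct markers at -0.24 to 0.11 and -0.068 to 0.17, the 7 of the thick ascending limb and distal tubule at -0.13 to 0.044 and -0.082 to 0.14, and the 6 of endothelium at -0.40 to 0.099 and -0.056 to 0.16. The 3' minus 5' level of Gapdh, a sign of RNA quality, was 0.58 to 0.66 and 0.62 to 0.64, and that of actin was 2.91 to 3.28 and 3.04 to 3.19. The part of these in the members' values was not tested.

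Other genes of the same pathways were read from lists of 112 genes, of which 104 were measured. None passed in either direction (limma), and at an unadjusted p under 0.05 there were 7 higher and 6 lower, beside 18.5% of all genes in either direction. The median differences were 0.032 for 30 further cytosolic chaperones and cochaperones, -0.087 for 9 further mitochondrial chaperones and proteases, -0.076 for 32 further genes of folding and disposal in the reticulum and 0.16 for 33 further genes of the integrated stress and unfolded protein responses. Of the first list, the genes of smallest p were Hspa4l, an HSP70 exchange factor (-0.39, SE 0.14), St13, the HSP70 cochaperone Hip (-0.18, SE 0.082, without overlap between the diets), and the small heat shock protein Hspb6 (-0.42, SE 0.20). None of these passed, at adjusted p-values of 0.273, 0.349 and 0.357 (limma). Of the mitochondrial list they were Grpel1, the exchange factor of Hspa9 (-0.19, SE 0.070), the protease subunit Clpx (-0.24, SE 0.14) and Trap1, the mitochondrial HSP90 (0.087, SE 0.081). Grpel1 did not overlap between diets, with Si deplete arrays at 10.86 to 11.01 and Si replete arrays at 11.05 to 11.16 (limma, adjusted p = 0.261).

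In the reticulum, Txndc5, a disulfide isomerase, differed by 0.41 (SE 0.14, adjusted p = 0.242 from limma), with every Si deplete array above every Si replete array. Erp44, which keeps folding enzymes in the early secretory pathway, differed by -0.21 (SE 0.074, adjusted p = 0.260 from limma), and Selenos, a selenoprotein of the disposal complex, by -0.24 (SE 0.086, adjusted p = 0.266 from limma). The arrays of Erp44 and Selenos were all lower in Si deplete kidneys. Over the 104 genes, 5 were higher and 6 lower without overlap, and 11.9% of all genes did not overlap in one direction or the other.

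Atf3, a stress factor induced by Atf4 and also an immediate early gene, had the largest difference among these genes. Its levels were 8.80, 7.14, 6.43 and 7.38 in Si deplete and 5.56, 5.68, 5.89 and 5.60 in Si replete replicates 1 to 4. The diets did not overlap, with Si deplete replicate 1 highest, and the difference was 1.76 (SE 0.41), a fold of 3.38. It did not pass (limma, adjusted p = 0.165), whereas without Si deplete replicate 3 it did. Ppp1r15b, the phosphatase subunit that restores translation, had levels of 9.12 to 9.48 against 9.55 to 9.74 in Si replete kidneys, a difference of -0.34 (SE 0.096, adjusted p = 0.202 from limma). Casp12, a caspase of the reticulum, differed by 0.75 (SE 0.22, adjusted p = 0.207 from limma) at a mean level of 4.04. Atf3 thus differed beside an Atf4 difference of 0.098 and a Ddit3 difference of 0.016, and a difference between these genes was not tested.

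**Figure D5:**
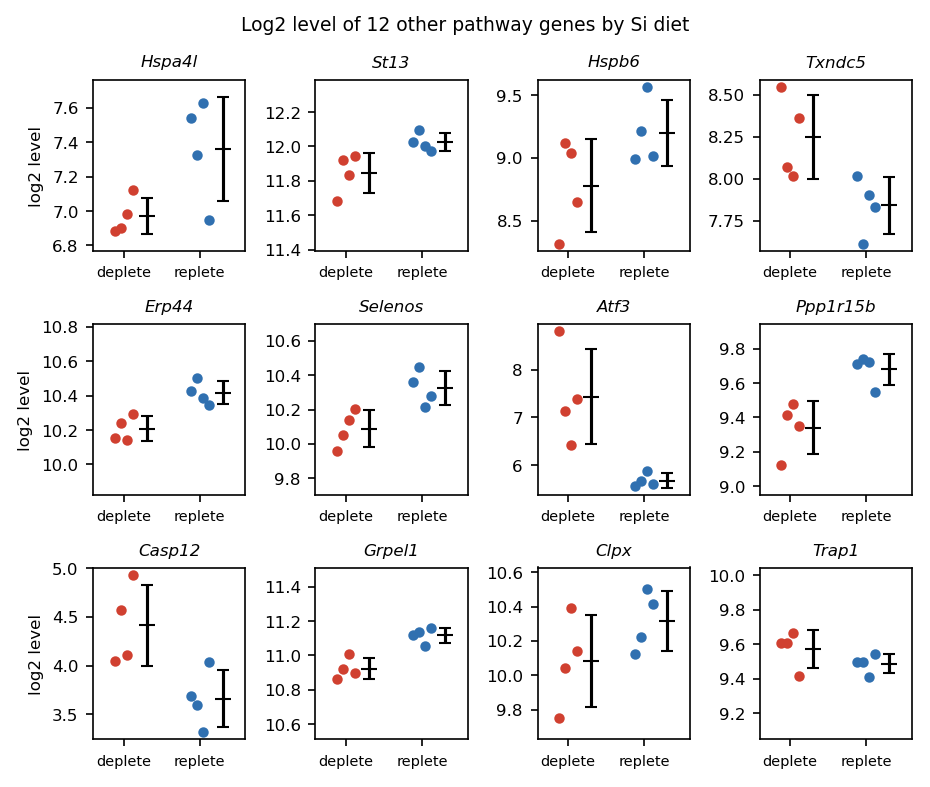
Log2 levels of 12 other genes of the chaperone and stress pathways, the 3 of smallest p in each of 4 lists, by diet, with 1 point for each array in replicate order, and the black mark and bar are the mean and SD of 4, with a separate scale in each panel. The Si deplete arrays of Atf3 lie at 6.43 to 8.80 and its Si replete arrays at 5.56 to 5.89, and none of the 12 passed at an adjusted p under 0.1.

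Further probe sets of the members numbered 16 for 12 genes, and 10 of these had a mean level of 4 or more. Of the 10, 7 had the direction of the brightest probe set, 0 passed (limma), and the largest difference was that of Hspa2 given above. Sizes were not alike throughout, since second probe sets of Pdia3 and Dnaja1 both differed by -0.22.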

How the data were processed

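RNA of left kidneys from 4 Si deplete and 4 Si replete rats was measured on Affymetrix rat genome arrays, 1 kidney per array. The values the authors deposited are log2 levels from gcRMA, which corrects background by GC content and normalizes across arrays, with probes summarized by m-estimators, in GCRMA 2.36.0 per the submitters' processing notes. Probe intensities were not analysed here, and filters applied before deposit were not stated in those sources.

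From the deposited log2 values, 31042 of 31099 probe sets were tested after leaving out 57 controls, by lmFit and eBayes of limma 3.58.1 (R 4.3.3), with no covariates, Benjamini-Hochberg adjustment over all 31042 and a threshold of 0.1, after the study's false discovery rate. No probe set was filtered by level. Of the tested probe sets, 20826 had 1 symbol in the platform annotation, 436 several and 9780 none. All 36 measured members were matched by Entrez ID to RefSeq. Array medians lay between 3.85 and 3.92 in Si deplete and between 3.80 and 3.84 in Si replete kidneys, without overlap. The highest correlation between arrays was 0.9961, so that none was taken as a copy of another.

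The members and lists were chosen with earlier results of these data known, so counts over them are descriptions. Levels in each array are given for the 14 members of smallest p and for Hspa1a, Hspa9, Hspd1, Hspa5, Hsp90b1, Hsf1, Xbp1, Atf4, Atf6 and Ddit3, and for the 3 genes of smallest p in each other list the difference is given. Levels of Hsph1 were added after they were seen. Counts of calls and of members without overlap, compartment medians and members' differences were also computed with array weights, an intensity trend, a robust prior, array medians subtracted, quantile normalization, without probe sets of mean under 4, with a block for the replicate number, 1 array left out at a time, Storey's q-value, a threshold of 0.05 and probe sets averaged per gene. The test was tried on simulated data. Promoter motifs were searched with Python 3.11.15.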

Additional observations from a re-analysis of the deposited data

Results flagged for a closer look

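Of 72 groups of 4 arrays, 36 members in each diet, 2 held an array far from the other 3, where chance gives about 1 in 20. Hspa2 had a level of 9.77 in Si deplete replicate 1, with the next at 9.13. Dnaja1 had a level of 11.77 in Si deplete replicate 2, with the next at 11.33. Among the 12 other pathway genes named, Ppp1r15b had a level of 9.55 in Si replete replicate 4, below the next at 9.71.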

How the results depend on the processing

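The count of members that passed was 0 in each direction in every setting, and the lowest adjusted value of a member was 0.194, for Dnajb4 by Storey's q-value. At an unadjusted p under 0.05, a count added after seeing the data, there were 1 member as reported, 3 with an intensity trend, 2 with array medians subtracted, 2 with quantile normalization and 0 to 3 with 1 array left out. Members whose diets did not overlap numbered 2 with array medians subtracted, 2 with quantile normalization and 1 to 4 with 1 array left out (4 without Si deplete replicate 3). The 2 with array medians subtracted were Hspa9 and Hspe1, both lower in Si deplete kidneys, whereas Dnajb4 then overlapped. Of the other pathway genes 0 to 1 were higher with 1 array left out. Over all probe sets, 35 were higher and 12 lower. These went to 58 and 19 without probe sets of mean under 4, to 19 lower with array medians subtracted, to 121 and 51 by Storey's q-value, to 0 and 0 at an adjusted p under 0.05 (limma, beside 4638 at an unadjusted p under 0.05), and to 0 to 235 higher and 0 to 67 lower with 1 array left out, lowest without Si replete replicate 1, 2 or 3 or without Si deplete replicate 2, and highest without Si deplete replicate 3. The cause was not tested.

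The deviations of same-numbered arrays correlated at -0.088 to 0.090 over all probe sets. This does not settle whether the replicate numbers pair the arrays, which are not tied to days or cages. With the replicate block, 90 probe sets were higher. The 3 members with an unadjusted p under 0.05 were Hspb1, Dnajb4 and Trib3, with 0 passing. The lowest adjusted p of a member was then 0.240, for Hspb1 (limma).

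The sign of 18 members changed in some setting, the largest of them Sdf2l1, and the reversed values were no larger than 0.13. With array weights the log2 differences were Hsph1 0.059, Hspd1 0.023, Hspa5 0.010, Hsp90b1 -0.0036, Manf 0.027, Ddit3 -0.015. With array medians subtracted they were Hspa4 -0.033, Hsp90b1 -0.047, Pdia3 -0.051, Pdia6 -0.039, Hyou1 -0.032, Ddit3 -0.041. With quantile normalization they were Hsph1 0.033, Hspd1 0.024, Hspa5 0.035, Calr 0.033, Manf 0.024. With probe sets averaged per gene they were Canx 0.0064, Pdia3 -0.11, Hyou1 -0.035. With 1 array left out they ranged as Hspa1a -0.019 to 0.30, Hspa4 -0.037 to 0.12, Hsph1 -0.15 to 0.13, Hspb8 -0.23 to 0.092, Dnaja1 -0.22 to 0.025, Hspd1 -0.038 to 0.051, Hspa5 -0.097 to 0.055, Hsp90b1 -0.042 to 0.11, Calr -0.078 to 0.038, Pdia3 -0.043 to 0.034, Pdia4 -0.13 to 0.016, Pdia6 -0.043 to 0.083, Sdf2l1 -0.49 to 0.031, Hyou1 -0.085 to 0.11, Manf -0.17 to 0.13, Atf4 -0.027 to 0.19, Ddit3 -0.13 to 0.15. The other 18 members kept their sign. The medians of the 4 compartments moved by less than the spread of those medians between arrays. With array medians subtracted, which were all higher in Si deplete kidneys, the cytosolic median was 0.058 and the mitochondrial one -0.12. In that setting the reticulum median was -0.076 and that of the unfolded protein response group 0.040. With 1 array left out, the cytosolic median lay between 0.059 (without Si replete replicate 1) and 0.19 (without Si deplete replicate 3), that of the unfolded protein response group between 0.045 (without Si replete replicate 4) and 0.18 (without Si deplete replicate 4), and the mitochondrial one between -0.076 and -0.054. That of the reticulum lay at -0.094 to 0.024 over all settings and changed sign, and the other medians kept theirs.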
